A study of Mus musculus with 3 samples.

Results

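The Alx1-high spots were 94 of the 1561 spots used from a section of an E11.5 mouse embryo, profiled on a spatial array whose spots each capture the RNA of a small patch of tissue. Members were chosen by measured values, as the 6% of spots with the highest score, which was the summed UMIs (unique molecular identifiers, each counting 1 captured RNA molecule) of Alx1 and Six2 divided by all UMIs of the spot. Only spots with at least 1000 UMIs were used. The series holds 3942 spots in 3 sections, from stages E11.5 and E12.5 and from E13.5, 1 section each, which the labels describe as the embryonic axial skeleton of mouse with bone as the tissue. The sources used here give neither strain nor sex nor the number of embryos, and name no treatment or mutation. Sections were 10 µm thick, spots were 55 µm across with 100 µm between centres, and a spot can hold several cells of different types. Spot positions were not used, so the members are known by their genes and not by their place.

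Alx1, like Alx4, belongs to a family of paired-type homeobox transcription factors that mark the frontonasal process and the mesenchyme around the eye, and its loss disturbs the development of the head in mouse and of the midface in human. This mesenchyme comes from cranial neural crest that carries no Hox code, in contrast to the crest of the posterior pharyngeal arches and to the trunk. Six2, a homeobox factor of the sine oculis family, is expressed in facial mesenchyme and in the progenitors of the nephron. Skeletal elements and connective tissue of the midface and the anterior skull form from these cells.

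The score chose the members, so the values of both scoring genes are given as a description. Alx1 had 1233 UMIs in the Alx1-high spots and 419 in the other 1467 spots, so 74.6% of the section's Alx1 UMIs lay in the members. Six2 was more widely spread, with 435 UMIs in the members and 479 in the other spots, or 47.6% of the section's Six2 UMIs. All 94 members held Alx1 and 83 held Six2. Alx1 gave more UMIs than Six2 in 80 members, Six2 more than Alx1 in 11, and they tied in 3. The score was 3.74 UMIs per 10000 in the lowest member, 6.23 at the median and 14.8 in the highest. At the threshold, the last 5 members had scores of 3.74 to 3.87 per 10000 from 7 to 12 scoring UMIs, and the first 5 spots outside had 3.51 to 3.69 from 8 to 15.

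Depth was similar in both sets. UMIs per spot were 10044, 25987.5 and 46144 (lowest, median and highest) in the Alx1-high spots, and 1140, 27054 and 80874 in the other spots. The members summed to 2522747 UMIs and the other spots to 41835863. Levels are given below as CPM, the UMIs of a gene per 1000000 UMIs of the summed spots, where 1 UMI in the members equals 0.396 CPM, and in single spots as UMIs per 10000 UMIs of the spot. Globin genes took 3.86% of UMIs in the members and 5.54% in the other spots, and mitochondrial genes 0.907% and 1.45%. Each stage is 1 section, so no test across embryos can be made, and the 95% intervals cover counting error only. A gene was called higher when the sets compared held at least 50 of its UMIs together and its CPM was at least 2 times as high in the members, and lower when it was at most 0.5 times as high. Because a spot pools cells, fewer cells of a type and less RNA per cell cannot be told apart. Levels are compared between sets of spots and not between genes.

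Against the other spots, the Alx1-high spots were rich in Alx4, MSX and PRRX homeobox genes, the EYA-SIX network and several secreted signalling regulators, and poor in Hox, heart, liver and neural genes. Of 13967 genes tested, 413 were called higher, which is 2.96%, and 2053 were called lower, which is 14.7%. The median gene differed by a log2 ratio of 0.05. Set against only the other spots of the 4 expression regions that held members, described below, the counts were 82 higher and 290 lower of 10310 genes.

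Alx4, which took no part in the score, was higher. It had a lowest, median and highest level of 0, 0.416 and 2.16 UMIs per 10000 in the Alx1-high spots and of 0, 0 and 3.98 in the other spots. The ranges overlapped, and the highest Alx4 level of the section lay outside the members. In sums it reached 49.5 CPM in the members and 6.05 CPM in the other spots, a ratio of 8.19 (95% interval 6.56 to 10.2). Alx4 was detected in 61 of 94 members, or 64.9% (exact binomial 95% interval 54.4 to 74.5), and in 190 of 1467 other spots, or 13.0% (11.3 to 14.8).

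Free RNA can place UMIs in spots that do not express a gene, so shares of spots were also taken at equal depth and set beside the spots of a region led by Ahsg, Itih2 and Alb, genes of liver, where Alx4 should be lacking. After each spot was thinned to 10000 UMIs, which kept 94 members and 1402 other spots, Alx4 was detected in 38.3% of members (28.5 to 48.9) and 4.56% of other spots (3.53 to 5.79). It was not found in the 35 spots of the Ahsg region at that depth, which with 3 counts as the limit of a count of 0 allows a share of up to 8.57%. Without thinning, Alx4 was detected in 2.86% of the spots of the Ahsg region, below both shares given above. Median depth was 25987.5 UMIs in the members and 30840 in the Ahsg region.

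**Figure D1:**
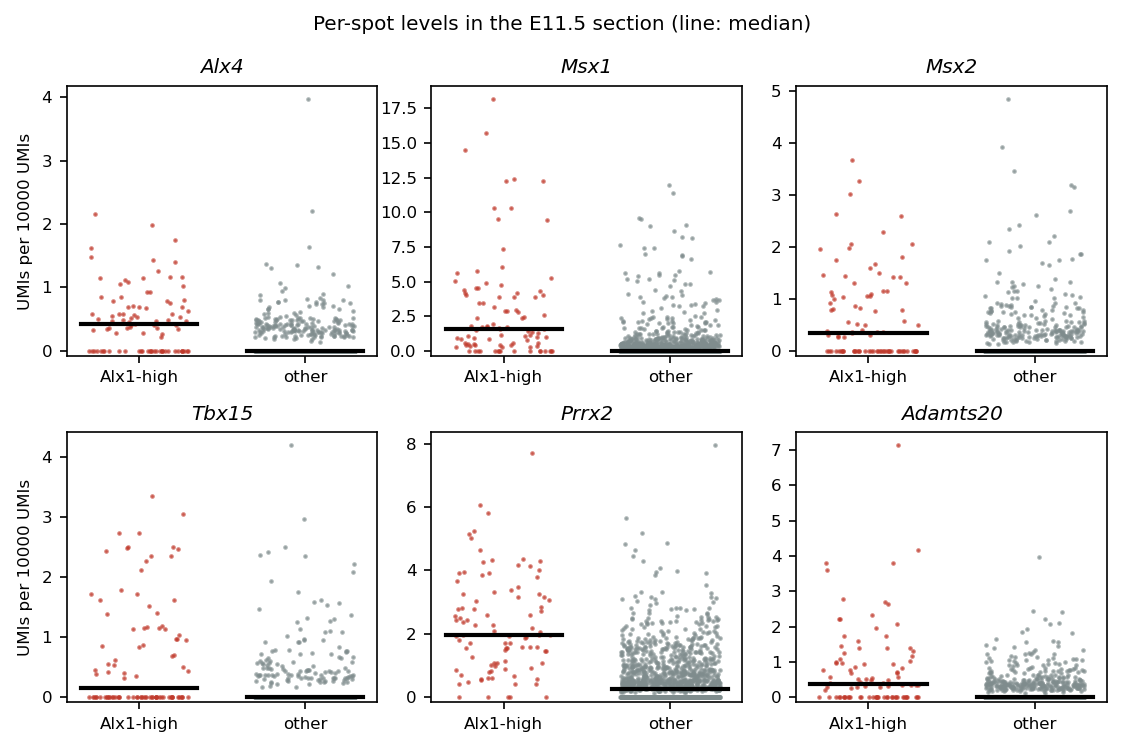
Levels of 6 genes in single spots of the E11.5 section, as UMIs per 10000 UMIs of the spot, with the Alx1-high spots at the left of each panel and the other spots at the right. Each point is 1 spot and the black line is the median, which is 1.61 for Msx1 in the members and 0 in the other spots, while the ranges of the groups overlap for every gene.

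MSX factors, homeobox repressors that act downstream of BMP signalling in the face and skull, were both higher. Msx1 had 0, 1.61 and 18.2 UMIs per 10000 in the Alx1-high spots and 0, 0 and 11.99 in the other spots. Its sums were 337 CPM in the members and 39.4 CPM in the other spots, a ratio of 8.55 (7.86 to 9.30). Msx2, which is needed for skull vault growth in mouse, reached 77.3 CPM against 11.1 CPM, a ratio of 6.98 (5.88 to 8.27). Most members carried them, with Msx1 in 78 spots and Msx2 in 53, but in both cases some members had none.

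Homeobox proteins of the paired type bind the sequence TAATNNNATTA as pairs, and TAATTA is the core read by many homeobox proteins. Promoter windows of 300 bases from RefSeq (build GRCm38.p6, 250 bases before to 50 after the gene start) were searched for both on both strands. Each motif is its own reverse complement, and TAATTA can lie within TAATNNNATTA, which it did not in the match found. Of the scoring genes and the 13 genes named as highest against the other spots, 15 in all, 10 matched an entry, with 11 promoters. TAATNNNATTA was in 0.487% of all 32851 promoters and, among these genes, in that of Six2, 45 bases before the start. TAATTA was in 5.29% of all promoters and, among these genes, in those of Msx2, 187 bases before the start, and of Alkal2, 85 bases before it. The 3 windows that hold a match are shown to let the letters be read, with the match in capitals: Six2 at chr17:85688205-85688504 on the minus strand, Msx2 at chr13:53472731-53473030 on the minus strand and Alkal2 at chr12:30884074-30884373 on the plus strand. A match describes the letters and is not a bound site.
Six2: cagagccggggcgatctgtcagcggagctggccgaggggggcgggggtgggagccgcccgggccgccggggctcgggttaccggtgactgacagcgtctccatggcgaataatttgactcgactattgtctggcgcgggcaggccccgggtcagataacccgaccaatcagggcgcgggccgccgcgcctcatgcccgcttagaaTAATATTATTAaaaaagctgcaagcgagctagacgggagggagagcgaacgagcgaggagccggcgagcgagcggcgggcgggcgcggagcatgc
Msx2: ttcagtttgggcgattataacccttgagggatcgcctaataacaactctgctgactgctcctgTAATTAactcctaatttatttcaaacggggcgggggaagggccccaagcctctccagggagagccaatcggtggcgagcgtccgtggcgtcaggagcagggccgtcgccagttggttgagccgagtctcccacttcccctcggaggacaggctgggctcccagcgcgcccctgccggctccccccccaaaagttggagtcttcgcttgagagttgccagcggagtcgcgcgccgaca
Alkal2: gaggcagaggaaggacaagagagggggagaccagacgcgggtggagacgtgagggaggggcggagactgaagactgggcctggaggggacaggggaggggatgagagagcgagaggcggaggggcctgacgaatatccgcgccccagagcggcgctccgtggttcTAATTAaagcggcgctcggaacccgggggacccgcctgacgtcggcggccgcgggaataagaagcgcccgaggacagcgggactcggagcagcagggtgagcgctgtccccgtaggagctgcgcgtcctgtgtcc

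The gene with the largest ratio among those named was Tbx15, a T-box factor of skeletal and dermal mesenchyme. It had 0, 0.158 and 3.35 UMIs per 10000 in the Alx1-high spots and 0, 0 and 4.21 in the other spots, so 47 of 94 members held all of the members' 193 UMIs. Its sums were 76.5 CPM in the members and 5.50 CPM in the other spots, a ratio of 13.9 (11.4 to 16.9). Alkal2, a ligand of the receptor kinases ALK and LTK, followed with 40.4 CPM against 2.96 CPM, a ratio of 13.6 (10.4 to 17.9). Adamts20, a secreted metalloprotease that cleaves versican, reached 91.2 CPM against 9.23 CPM, a ratio of 9.88 (8.36 to 11.7). Dkk1, a secreted WNT antagonist required for the head of the mouse, had 42.8 CPM against 4.61 CPM, a ratio of 9.28 (7.26 to 11.8), but only 27 members held it and its highest level was 10.7 per 10000 in a member.

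Further named genes were carried by parts of the members. The homeobox gene En1 had 42.0 CPM in the Alx1-high spots and 6.24 CPM in the other spots, from 24 members. Cbln1, a secreted protein known as an organiser of synapses, had 99.5 CPM against 14.8 CPM, from 37 members. Gata2, a zinc finger transcription factor, had 57.9 CPM against 9.08 CPM, from 32 members. Lix1, Tmem26 and Crym, which encodes a thyroid hormone binding protein, were spread more widely, with UMIs in 70, 63 and 80 members and ratios of 7.13, 5.11 and 4.96.

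The list of 22 regulators of cranial neural crest mesenchyme, which includes Alx4 and both MSX genes, had 12 called higher and 4 called lower, with a median log2 ratio of 1.16 against 0.05 for all genes tested. In the Alx1 region, described below, the list summed to 1813 CPM in the members and 1674 CPM in the other spots of the region. The sums were 2560 CPM against 1841 CPM in the Cxcl14 region and 1237 CPM against 962 CPM in the Tnnc2 region. High sums were thus not particular to the members. Prrx2 had 250 CPM in the Alx1-high spots and 52.1 CPM in the other spots, a ratio of 4.80 (4.39 to 5.25), and Prrx1 had 292 CPM against 80.1 CPM. Both are homeobox genes of facial and limb mesenchyme. Twist1, a bHLH factor of crest mesenchyme, had 149 CPM against 56.3 CPM, Tfap2c 16.3 CPM against 2.70 CPM and Tfap2b 31.7 CPM against 14.1 CPM. Pax7, a gene of nasal crest and of muscle progenitors, had 23.0 CPM against 6.55 CPM, and Pax9 41.6 CPM against 10.1 CPM. The 4 lower members were Meis1, at 30.5 CPM against 129 CPM, Meis2, at 17.4 CPM against 97.9 CPM, Nr2f2, at 46.8 CPM against 101 CPM, and Lhx6, at 0.793 CPM against 4.16 CPM. Sox10, the marker of crest that has not become mesenchyme, was lower too, at 13.9 CPM against 30.6 CPM, and of the 9 listed genes of neural crest progenitors and Schwann cell precursors 0 were called higher and 7 lower.

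The EYA-SIX network, in which EYA proteins act as coactivators of homeobox factors of the sine oculis family, was higher than in the other spots beyond the scored gene. Of 9 tested, 5 were called higher and 1 lower, with a median log2 ratio of 1.02. Eya1 had 44.4 CPM in the Alx1-high spots and 10.1 CPM in the other spots, Eya4 38.5 CPM against 8.37 CPM and Six4 26.2 CPM against 7.55 CPM. Dach2 was the one called lower, at 0.793 CPM against 5.43 CPM. Against the arch spots, described below, 1 of 7 tested genes of this list was called higher and 6 were not called, and the crest regulator list had 8 of 21 higher and 6 lower there. Six2 and Eya1 also serve the nephron, and of 11 nephron genes tested against the other spots 7 were called lower, 2, Eya1 and Itga8, higher, and 2, Gdnf and Cited1, were not called. Against the trunk spots 2 of the 4 nephron genes tested were called higher and 1 lower. Wt1 had 0 UMIs in the members against 21.8 CPM in the other spots, and Pax2 and Pax8 had 0.396 CPM each against 2.34 and 4.30 CPM.

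Of 9 genes of the mesenchyme around the eye tested, 4 were called higher, 0 lower and 5 not called. Of all genes tested, 2.96% were called higher and 14.7% lower. Against the arch spots, described below, 4 of 8 tested were higher and 0 lower, beside 1.95% and 1.78% of all genes tested. Against the trunk spots 4 of 7 were higher and 2 lower, beside 1.92% and 4.07% of all genes tested. The list summed to 314 CPM in the members and 224 CPM in the other spots. It summed to 158 CPM in the arch spots and to 457 CPM in the trunk spots, above the members. In the Alx1 region, described below, it was 316 CPM in the members and 452 CPM in the other spots of the region. It was 142 CPM against 129 CPM in the Cxcl14 region and 505 CPM against 409 CPM in the Tnnc2 region. Foxd2 had 26.6 CPM in the Alx1-high spots and 7.12 CPM in the other spots. Foxc1 had 121 CPM against 84.8 CPM and was not called. The label of frontonasal mesenchyme rests on Alx4, MSX, PRRX and EYA-SIX genes that the frontonasal process shares with other mesenchyme. Some were also high in an expression region led by Hoxa11os and Hoxa10, with a Hox sum of 699 CPM. Eya4 had 36.2 CPM and Prrx1 236 CPM there, though Alx4 had 13.0 CPM and Msx2 4.64 CPM. The spots are called by their rule here.

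Hox genes, which set position along the body axis behind the face, were nearly absent from the members. Of the 39 Hox genes, 31 were tested and all 31 were called lower, with a median log2 ratio of -4.26, and 15 of the 39 had no UMI in any member. Their sum was 25.8 CPM in the Alx1-high spots and 741 CPM in the other spots. In single spots the Hox sum was 0, 0.280 and 1.47 UMIs per 10000 in the members and 0, 4.57 and 60.2 in the other spots. No Hox UMI was found in 44 of 94 members and in 146 of 1467 other spots, so low Hox levels were not confined to the members. Hoxb2, expressed from the hindbrain backward, had 0 UMIs in the members and 2760 in the other spots, or 66.0 CPM, which makes it at least 55.5-fold lower with the members set at a floor of 3 UMIs. At equal depth Hoxb2 was found in 0 of 94 members, which by the same limit of 3 counts allows a share of up to 3.19%, in 37.2% of other spots (34.6 to 39.8) and in 11.4% of the Ahsg region. Hoxb6 and Hoxc9 had 1 UMI each in the members, with ratios of 0.00865 (0.000219 to 0.0483) and 0.00939 (0.000238 to 0.0524).

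**Figure D2:**
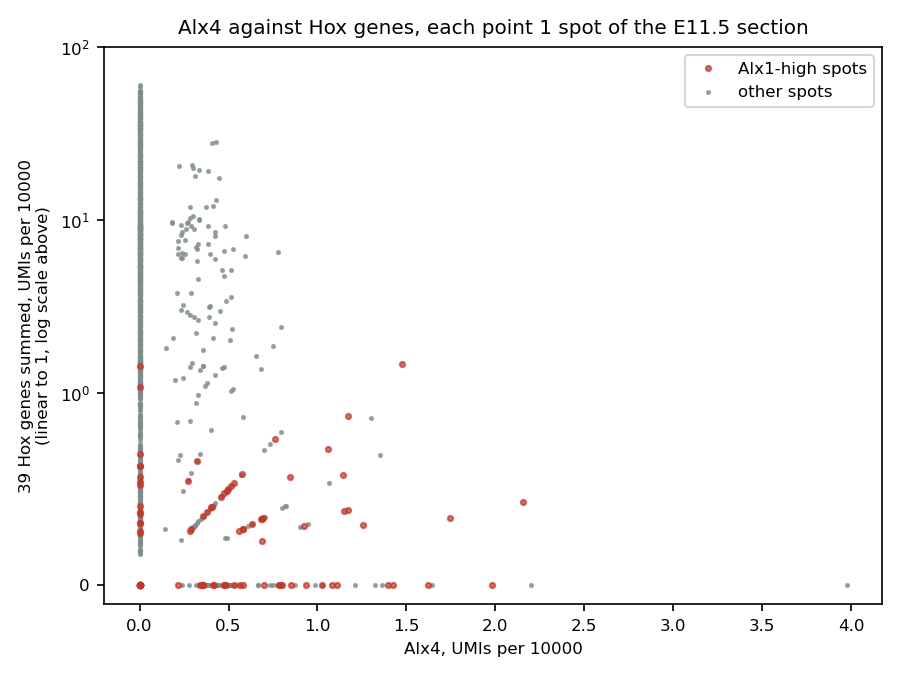
Levels of Alx4 (x axis) against the summed levels of 39 Hox genes (y axis, linear to 1 and log above), both in UMIs per 10000, where each point is 1 spot of the E11.5 section. The Alx1-high spots lie along the bottom, with a median Hox sum of 0.280, against 4.57 in the other spots.

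Markers of other organs were low in the members. All 10 heart muscle genes were called lower, with a sum of 65.8 CPM in the Alx1-high spots and 2365 CPM in the other spots. Myl7, an atrial myosin light chain, had 12.7 CPM against 509 CPM, a ratio of 0.0249 (0.0170 to 0.0352). All 10 neuronal genes, 8 of 9 neural progenitor genes and all 8 liver genes tested were called lower. Pcsk1n, a neuroendocrine peptide precursor, had 4 UMIs in the members against 105.7 CPM in the other spots. Skeletal muscle genes were lower in 6 of 7 tested, and the one higher was Pax7, which also belongs to the crest list. The other spots include whole regions led by heart and by liver genes, which the members do not enter.

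**Figure D3:**
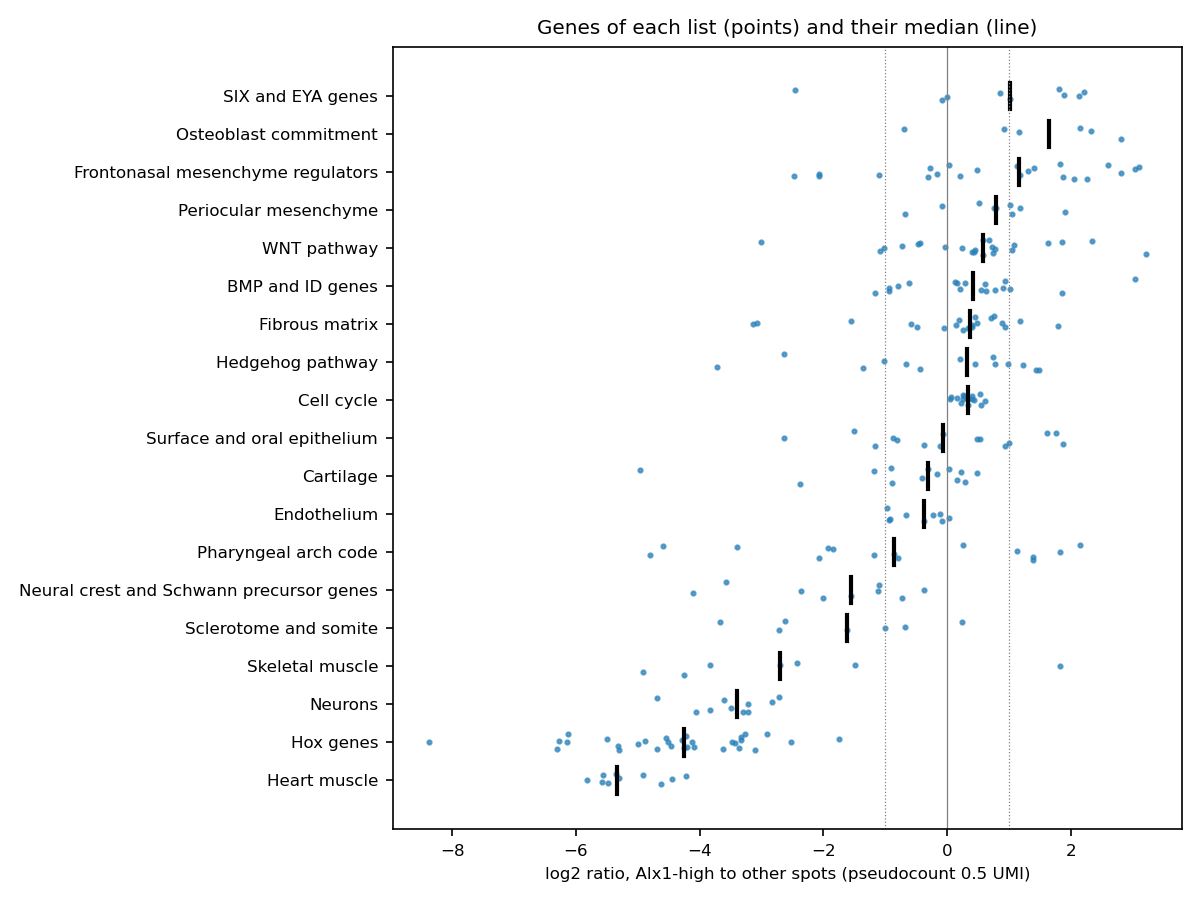
Log2 ratios of CPM between the Alx1-high spots and the other spots, with a pseudocount of 0.5 UMI, for the genes of 19 lists (points, tested genes) and each list's median (black line). Dotted lines mark the 2-fold calls. The osteoblast list has a median of 1.65 and the EYA-SIX list of 1.02, while the Hox list has -4.26 and the heart list -5.33.

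Several secreted regulators of WNT signalling were higher. Of 23 WNT pathway genes tested, 6 were called higher and 3 lower, beside 2.96% and 14.7% of all genes tested. The antagonist Wif1 had 21.4 CPM in the Alx1-high spots and 4.25 CPM in the other spots, the ligand Wnt5a, which directs outgrowth of the face and limbs, 90.8 CPM against 29.2 CPM, and the agonist Rspo2 22.6 CPM against 6.29 CPM. Axin2, a common target of the pathway, had 19.03 CPM against 14.0 CPM and was not called. In the BMP list 3 of 18 were called higher and 3 lower, beside the same shares of all genes. Gdf6, a BMP family ligand that patterns skull and eye, had 19.8 CPM against 2.41 CPM, a ratio of 8.21, while the target genes Id1 and Id3 had 173 and 683 CPM in the members against 155 and 446 CPM in the other spots.

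In the hedgehog list the coreceptors Gas1 and Cdon were higher, at 218 CPM in the Alx1-high spots against 80.6 CPM in the other spots and at 72.9 CPM against 26.1 CPM, as was the effector Gli2, at 42.8 CPM against 18.4 CPM. The ligand Shh was lower, with 0.396 CPM against 7.84 CPM, and the target Ptch1, at 30.1 CPM against 48.0 CPM, was not called. Against the arch spots 1 of 12 hedgehog genes tested was called higher and 4 lower, with list sums of 688 CPM and 716 CPM. Against the trunk spots 2 of 12 were higher and 5 lower, with 688 CPM and 800 CPM. In the retinoic acid list 3 of 14 tested were called higher and 3 lower, beside 2.96% and 14.7% of all genes tested. The synthesising enzyme Aldh1a3, found around the eye and nose, had 25.4 CPM in the Alx1-high spots against 5.57 CPM in the other spots. Over all spots of the regions described below, it was highest in the epithelial region led by Oc90, at 136 CPM. It had 9.67 CPM in the Alx1 region, which holds most members. Aldh1a2, the enzyme of the trunk, had 5.55 CPM against 45.6 CPM. The receptor Rarg had 109 CPM against 43.6 CPM and the degrading enzyme Cyp26b1 43.6 CPM against 16.2 CPM. Pdgfra, a receptor needed in facial crest, was called higher at 170 CPM against 77.6 CPM. Of 14 FGF genes tested 1 was called higher and 2 lower, beside 2.96% and 14.7% of all genes tested. The ligand Fgf8 was higher, at 6.74 CPM against 3.11 CPM, from 12 members. The ligands Fgf10, at 1.98 CPM against 5.00 CPM, and Fgf15, at 0.793 CPM against 6.12 CPM, were lower.

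Some early osteoblast regulators were higher than in the other spots, and cartilage genes were not. In the osteoblast list 4 of 6 tested were called higher, with sums of 130.0 CPM in the Alx1-high spots and 32.3 CPM in the other spots. They were Msx2, Dlx5, Runx2 and Alpl. Msx2 and Dlx5, which also belong to the crest and arch lists, gave 77.3 and 27.4 CPM of the members' sum. In the Alx1 region, described below, the list summed to 127 CPM in the members and to 180 CPM in the other spots of the region. The sums were 246 CPM against 114 CPM in the Cxcl14 region and 16.6 CPM against 11.4 CPM in the Tnnc2 region. Against the arch spots only 2 were tested, of which 1, Msx2, was called higher and 1, Dlx5, lower. Against the trunk spots 2 of 2 were higher. Runx2, the master factor of bone, had 10.7 CPM against 2.15 CPM, from 22 members. Sp7, which acts after Runx2, had 2.77 CPM against 1.55 CPM and was not called, and Spp1, a bone matrix protein, had 4.36 CPM against 7.39 CPM. Of 13 cartilage genes 0 were called higher and 3 lower, beside 2.96% and 14.7% of all genes tested. Col2a1, the main collagen of cartilage, had 510 CPM against 458 CPM, and Acan, a proteoglycan of mature cartilage, had 0 UMIs in the members against 6.19 CPM in the other spots. Among 20 fibrous matrix genes, Fbln2, a basement membrane and matrix protein, was higher at 383 CPM against 111 CPM and Tnc at 82.1 CPM against 36.5 CPM, whereas Dcn had 3.96 CPM against 35.1 CPM and Postn 27.4 CPM against 80.6 CPM.

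For a comparison with other mesenchyme of the same section, 2 more sets of spots were taken with the same rule: arch spots, the 6% with the highest summed share of Pitx1 and Barx1, genes of the first pharyngeal arch, and trunk spots, the 6% highest in Pax1 and Meox1, genes of the sclerotome and somites. After 1 spot shared with the members was left out there were 93 arch spots and 94 trunk spots, of which 3 were in both. The arch spots were spread over the expression regions described below, with 36 in a region led by Cxcl14, 17 in one led by Pyy, a gut hormone gene, 16 in one led by Oc90 and 9 in one led by Hoxa11os and Hoxa10. The trunk spots lay mostly in regions led by Car3, with 39 spots, Pax1, with 23, and Wt1, with 17. These scoring genes are left out of the comparisons. Against the arch spots, 174 of 8941 genes tested were called higher in the Alx1-high spots (1.95%) and 159 lower (1.78%). Against the trunk spots, 173 of 9011 were called higher (1.92%) and 367 lower (4.07%).

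Alx4 was called higher in the members than in both. It had 49.5 CPM in the Alx1-high spots, 14.95 CPM in the arch spots and 3.85 CPM in the trunk spots, and was detected in 61 of 94, 24 of 93 and 7 of 94 spots. Prrx1, at 292, 223 and 95.7 CPM, and Twist1, at 149, 110 and 103 CPM, were not called higher than in the arch spots. The Hox sum per 10000 had a median of 0.280 in the members, 0.547 in the arch spots and 6.76 in the trunk spots, and the Hox genes summed to 25.8, 226 and 658 CPM.

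Against the arch spots, the largest ratios among the named genes were those of Cbln1, at 99.5 CPM in the Alx1-high spots against 1.81 CPM, En1, at 42.0 CPM against 1.81 CPM, Tbx15, at 76.5 CPM against 5.44 CPM, and Alcam, a cell adhesion molecule, at 333 CPM against 27.6 CPM, a ratio of 12.1 (9.29 to 15.9). Msx2 had a ratio of 10.7, Gata2 of 8.52 and Adamts20 of 7.74. Genes of the pharyngeal arch code, a set of factors that patterns the jaws along the dorsal to ventral axis, had 0 of 10 tested called higher and 9 lower against the arch spots, which were chosen for genes of this kind, so the count is a description. Against the other spots the same list had 5 of 15 called higher, Dlx5, Dlx6, Gsc, Ednra and Lhx8, and 8 lower. Hand2, the factor of the ventral arch, had 2 UMIs in the members and 116 in the arch spots, a ratio of 0.0151 (0.00181 to 0.0557). Dlx5 had 27.4 CPM against 57.5 CPM in the arch spots, Lhx8 12.7 CPM against 50.7 CPM and Gsc, a homeobox gene of the jaw and the nasal region, 79.7 CPM against 249 CPM. Foxf1 and Foxf2, hedgehog-responsive forkhead genes, were lower at 6.74 CPM against 40.3 CPM and at 5.15 CPM against 77.0 CPM, as were Osr1, at 14.7 CPM against 114 CPM, and Aldh1a2, at 5.55 CPM against 82.9 CPM. The arch spots also held more RNA of other tissues. Epithelial genes were lower in the members in 6 of 8 tested, with a list sum of 139 CPM in the members and 374 CPM in the arch spots. Limb bud genes were lower in 3 of 3, at 45.2 CPM against 184 CPM, liver genes in 4 of 4, at 36.9 CPM against 191 CPM, and heart genes in 5 of 6, at 65.8 CPM against 189 CPM. The part of these tissues in the differences was not tested.

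Against the trunk spots, Msx1 had 337 CPM in the Alx1-high spots and 9.13 CPM, a ratio of 36.9 (23.5 to 61.6), and Lix1 106 CPM against 5.29 CPM. Alkal2 had 102 UMIs in the members and 0 in the trunk spots, at least 28.0-fold higher with the trunk spots set at a floor of 3 UMIs. All 13 cartilage genes were called lower, with sums of 916 CPM against 4182 CPM. The trunk spots were chosen for genes of the sclerotome, and 39 lay in a region led by Car3, Col9a3 and Col2a1 among others. The cartilage count is therefore a description. Col2a1 had 510 CPM against 2205 CPM and Sox9, the factor that starts cartilage, 69.8 CPM against 166 CPM. Col14a1, a collagen of fibrous tissue, had 4 UMIs in the members and 172 in the trunk spots, and Saa2, an acute phase protein gene, 0 UMIs against 101, at least 40.8-fold lower. The trunk spots also held more heart and skeletal muscle RNA, with list sums of 65.8 CPM in the members against 1498 CPM, and of 57.9 CPM against 552 CPM, and its part in the differences was not tested.

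**Figure D4:**
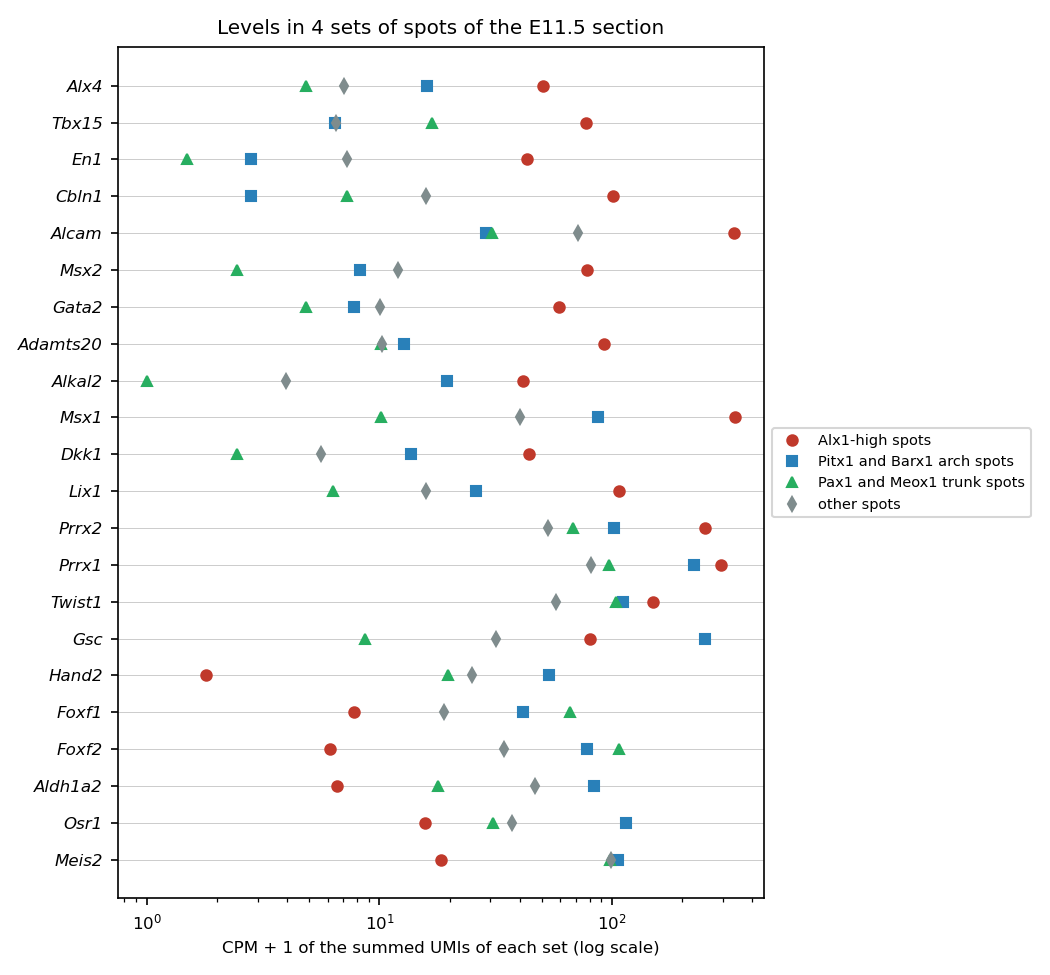
CPM + 1 (log scale) of 22 genes in the summed UMIs of the Alx1-high spots (red circles), the arch spots (blue squares), the trunk spots (green triangles) and the other spots of the section (grey diamonds). Alx4 stands at 49.5 CPM in the members and 14.95 CPM in the arch spots, and Hand2 at 0.793 CPM in the members and 52.6 CPM in the arch spots.

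The members were not uniform. Clustering of all 1561 spots by expression gave 21 regions, and 4 of them held members. The largest group was 59 members in a region of 105 spots led by Alx1, Msx2, Six2 and Alcam. A further 18 members lay in a region of 64 spots led by the muscle genes Tnnc2, Myh3 and Myog, 15 in a region of 89 spots led by Cxcl14 and Msx1, and 2 in a region of 47 spots led by Oc90, Aldh1a3 and Epcam, genes of epithelium. Since the scoring genes took part in the clustering, the levels below are a description. They are called the Alx1, Tnnc2, Cxcl14 and Oc90 regions after their leading genes.

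The 59 members of the Alx1 region carried all 106 of the members' En1 UMIs, 245 of 251 for Cbln1 and 187 of 193 for Tbx15. Tbx15 had 110 CPM (95.1 to 127) in these members and 25.3 CPM (17.4 to 35.5) in the 46 other spots of the region. Cbln1 had 145 CPM (127 to 164) against 20.7 CPM (13.6 to 30.1), and Adamts20 122 CPM (106 to 140) against 12.3 CPM (7.01 to 19.9). These 3 genes were higher in the members of the region than in its other spots. En1 had 62.6 CPM (51.2 to 75.7) against 49.8 CPM (38.5 to 63.5), intervals that overlap, and Alcam and Msx2 were at least as high in the spots that were not members, with 482 CPM against 589 CPM and 89.7 CPM against 125 CPM. The neuronal list summed to 252 CPM in the members of the region and to 994 CPM in its other spots, and its part in these differences was not tested.

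The 15 members of the Cxcl14 region had another set. Msx1 stood at 1007 CPM (915 to 1108) in them and at 271 CPM (248 to 295) in the 74 other spots of the region. Dkk1 had 209 CPM (168 to 257) against 23.9 CPM (17.5 to 32.0), which is 90 of the 108 Dkk1 UMIs of all members. Gata2 had 262 CPM (216 to 315) against 22.9 CPM (16.6 to 30.8), Pax9 169 CPM (133 to 213) against 14.9 CPM (9.90 to 21.5) and Wnt5a 357 CPM (303 to 419) against 87.3 CPM (74.4 to 102). The arch genes Pitx1 and Barx1 were nearly missing from these members, at 2.32 CPM (0.0588 to 12.9) against 311 CPM (287 to 338) and at 4.64 CPM (0.562 to 16.8) against 210 CPM (189 to 231). Gsc followed them, with 4.64 CPM against 291 CPM. In the members of the Alx1 region Gata2 stood at 6.49 CPM, against 9.08 CPM in the other spots of the section. Dlx5, at 109 CPM against 78.7 CPM, and Lhx8, at 60.3 CPM against 85.7 CPM, had overlapping intervals. Tbx15, En1 and Cbln1 had 0 UMIs in the 15 members. The epithelial list summed to 371 CPM in them and to 195 CPM in the other spots of the region, and the endothelial list to 501 CPM against 346 CPM, and their part in these differences was not tested.

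The 18 members of the Tnnc2 region did not carry the muscle genes that lead it. Myog, the factor that commits muscle cells, had 1 UMI in them, or 2.76 CPM (0.0699 to 15.4), and 308 CPM (278 to 341) in the 46 other spots of the region, and the muscle list summed to 80.1 CPM against 2393 CPM. Gsc had 329 CPM (272 to 393) in these members and 40.9 CPM (30.3 to 53.9) in the other spots, and Barx1 77.3 CPM (51.4 to 112) against 10.6 CPM (5.66 to 18.2). Foxc1, a forkhead gene of periocular and skull mesenchyme, had 260 CPM (210 to 318) against 152 CPM (131 to 175). Crym was high in both, at 354 CPM against 378 CPM. Msx1 was low in both, at 22.1 CPM against 15.5 CPM, unlike in the other regions that held more than 2 members. These members were shallower, with a median of 18599.5 UMIs against 28494 in the members of the Alx1 region and 27891 in those of the Cxcl14 region.

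The 2 members of the Oc90 region had Epcam, an epithelial adhesion protein, at 502 CPM (297 to 793) and Aldh1a3 at 446 CPM (255 to 724), from 18 and 16 UMIs, against 230.5 CPM (203 to 260) and 127 CPM (107 to 149) in the 45 other spots. Alx4 stood across the members at 57.3 CPM (46.4 to 69.9) in the Alx1 region, 37.1 CPM (21.2 to 60.3) in the Cxcl14 region and 30.4 CPM (15.2 to 54.4) in the Tnnc2 region. Its intervals in these 3 regions overlapped. Over all spots of each region, members included, Alx4 stood at 49.0, 34.6 and 18.3 CPM, in the same order. Each of these values lies inside the interval of the members of that region.

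**Figure D5:**
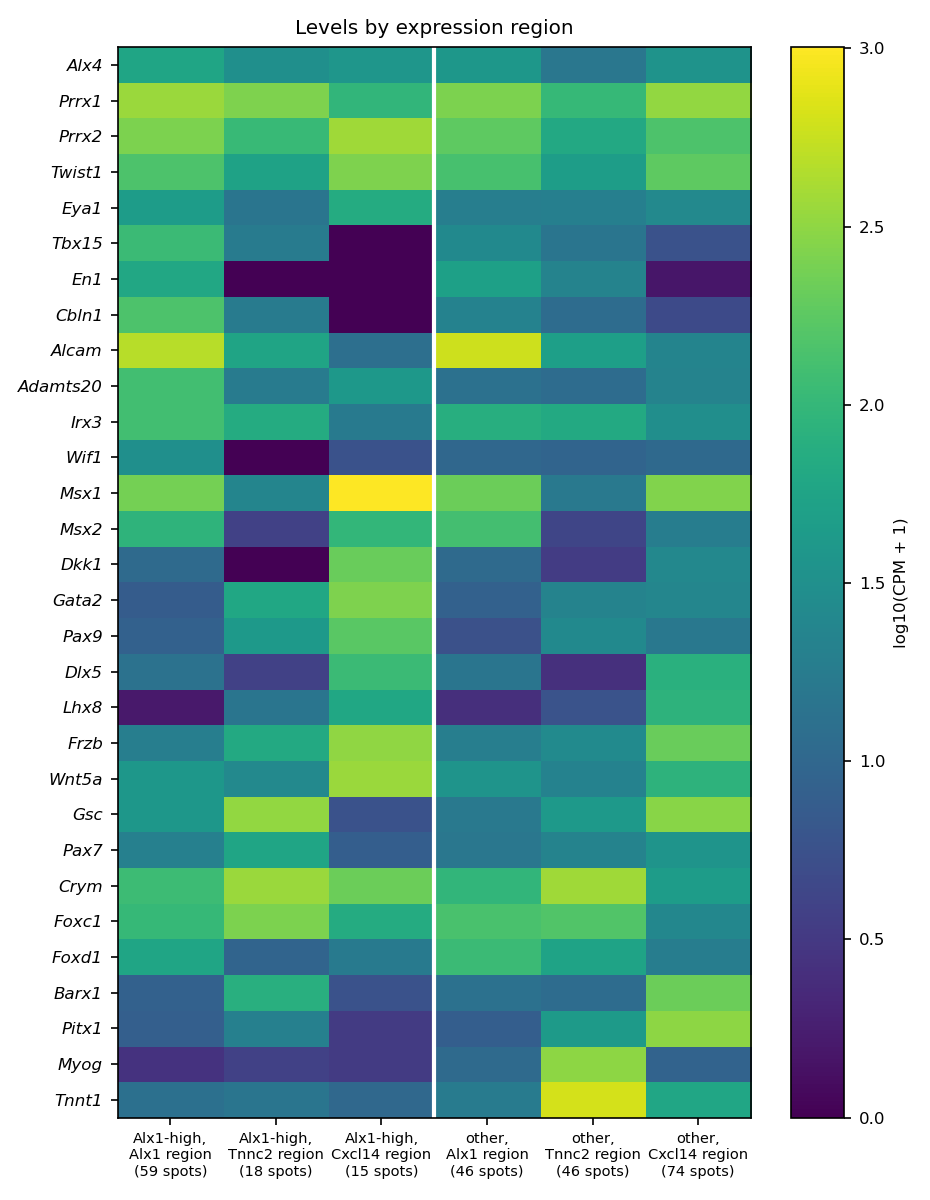
Levels of 30 genes as log10(CPM + 1) (colour scale) in the members of 3 regions (left of the white line) and in the other spots of the same regions (right). Tbx15 and Cbln1 mark the members of the Alx1 region, at 110 and 145 CPM, Msx1, Dkk1 and Gata2 those of the Cxcl14 region, at 1007, 209 and 262 CPM, and Gsc and Foxc1 those of the Tnnc2 region, at 329 and 260 CPM, while Myog and Tnnt1 stay with the other spots of that region.

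The scoring genes also divide the members, and since they chose them the values that follow are a description. All 11 members where Six2 led lay in the Alx1 region, while the 80 where Alx1 led had 45 there, 18 in the Tnnc2 region, 15 in the Cxcl14 region and 2 in the Oc90 region. Msx1 had 67.9 CPM in the members where Six2 led and 381 CPM where Alx1 led, and Alx4 had 61.7 CPM against 46.8 CPM. Col2a1 had 1255 CPM where Six2 led against 401 CPM, and the neuronal marker Tubb3 231 CPM against 55.3 CPM, and the part of neural tissue in this was not tested. Of the 11 members without a Six2 UMI, 6 lay in the Cxcl14 region and 5 in the Tnnc2 region. They had Frzb, a secreted WNT antagonist, at 542 CPM against 30.5 CPM in the 83 with one, Pax9 at 282 CPM against 17.5 CPM, and Alcam at 4.34 CPM against 366.5 CPM.

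At later stages the same rule found few UMIs to work with. Alx1 summed to 1652 UMIs in the whole E11.5 section, or 37.2 CPM, to 109 at E12.5, or 4.28 CPM, and to 43 at E13.5, or 1.496 CPM. The lowest member had a score of 3.74 per 10000 at E11.5, 0.645 among the 61 members at E12.5 and 0.357 among the 82 members at E13.5. Spots at or above the E11.5 threshold numbered 94, 2 and 0. The spots chosen at E12.5 and E13.5 were poor in Alx4, which had 49.5 CPM in the members at E11.5, 10.4 CPM (5.55 to 17.8) at E12.5 and 2.66 CPM (0.726 to 6.82) at E13.5. The other spots had 6.93 CPM of Alx4 at E12.5 and 1.14 CPM at E13.5, values inside those intervals. Msx1 had 337, 2.41 and 1.33 CPM. Prrx1, at 257 CPM in the members and 104 CPM in the other spots of E12.5, and Tbx15, at 68.2 CPM against 27.3 CPM, were still higher in the spots chosen there. At E13.5 Prrx1 had 117 CPM in the members against 86.6 CPM, and Tbx15 30.6 CPM (22.4 to 40.9) against 25.8 CPM. The Hox sum was 908 CPM in the members and 1329 CPM in the other spots at E12.5, and 425 CPM against 476 CPM at E13.5, against 25.8 CPM in the members at E11.5. Each stage is 1 section, so stage, embryo and the plane of the section cannot be told apart. Between the sections 434 spot barcodes were shared by E11.5 and E12.5, 704 by E11.5 and E13.5 and 696 by E12.5 and E13.5, as barcodes come from a fixed list of array positions.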

How the data were processed

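The deposited matrices hold raw UMI counts for 3 sections, and per the file headers Space Ranger 1.2.0 wrote them. The submitters' processing notes name STAR and mm10, and the sources used here do not say how spots were selected or which annotation was used. Names are those of the files, and 32158 of the 32285 gene IDs were found in the reference table. The 78 entries that share a symbol were tested but not named. Stages come from the section titles, and no replicate section exists.

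Spots under 1000 UMIs were left out, which took 2 spots from E11.5, 5 from E13.5 and none from E12.5. The 6% of spots highest in Alx1 and Six2 were summed and compared with the other spots, and with 2 sets taken by the same rule, by the ratio of CPM with an exact conditional binomial 95% interval. CPM of subsets have exact Poisson intervals. A pseudocount of 0.5 UMI served the log2 ratios. Calls needed 50 UMIs and a ratio of 2 or its inverse. Regions came from Leiden clustering at resolution 1 (2000 variable genes, 30 components, 15 neighbours). No doublet caller was used, as spots are not cells. Genes named as highest or lowest were the 15 largest ratios per direction against the other spots, and 8 against the arch and trunk spots, with at least 100 UMIs (for lower genes, expected UMIs) and UMIs in at least 20% of the spots of the higher set. Scoring, globin, mitochondrial, ribosomal and unnamed genes, Xist and Y-linked genes were not eligible. Genes from 36 lists are named too. A few genes are not reported here, and the lists and counts of named genes are given without them. Members, lists and rules were chosen with earlier results of these data known. The ratio code was tested on simulated data. Software was scanpy 1.11.5 with igraph 0.11.9 for clustering, matplotlib 3.10.9 for figures, and pandas 2.3.3, scipy 1.17.1 and numpy 2.4.6 under Python 3.11.15.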

Additional observations from a re-analysis of the deposited data

How the results depend on the processing

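With 1 section per stage no replicate could be left out, and 3 of the alternatives were chosen after seeing the data. No paired analysis was possible because each stage has 1 section. At 20 UMIs per gene, 324 were higher and 376 lower against the arch spots, and 318 and 729 against the trunk spots. At 200 UMIs the counts were 224 and 1190 against the other spots, 41 and 31 against the arch spots, and 42 and 85 against the trunk spots. With each spot thinned to 10000 UMIs they were 89 and 72 (arch) and 85 and 192 (trunk), where fewer UMIs leave fewer genes tested. With the top 3% of spots, 101 genes were lower against the arch spots and 205 against the trunk spots. Without the members of the Alx1 region, 690 genes were higher against the other spots, 102 against the arch spots and 106 against the trunk spots, and En1 and Cbln1 turned to log2 ratios of -3.37 and -0.92. With only the members of that region, Gata2 turned to -0.42. Against only the other spots of the regions that held members, 82 genes were higher and 290 lower, and 26 of the 28 genes named against the other spots moved out of their interval, though none turned round. A further 62 values of these counts, and 9 under the 3 settings chosen later, stayed within 1.5 times of the count reported. Under all settings tried other than those 3, none of these 28 genes turned round, and with Six2 alone as the score 18 moved. Genes with few UMIs, subsets of 2 to 18 spots and both later sections, where Alx1 has 109 and 43 UMIs, are limited by depth.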

Other observations

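Few genes of proliferation and supporting tissue were called, beside 2.96% called higher and 14.7% lower of all genes tested. At these shares few calls would fall in lists of 9 to 16 genes in any case. None of 16 cell cycle genes was called in either direction, with a median log2 ratio of 0.33 between the Alx1-high spots and the other spots. Their sums were 2755 CPM in the members and 2185 CPM in the other spots. They were 3108 CPM in the arch spots and 2701 CPM in the trunk spots. Top2a, which untangles replicated DNA, had 317 CPM in the members and 208 CPM in the other spots. None of the 9 endothelial genes was called, with Pecam1 at 25.8 CPM against 27.6 CPM, and of 9 macrophage genes Mrc1 alone was called, lower at 3.57 CPM against 8.77 CPM. The 14 genes of glycolysis had none called.

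Imprinted growth genes were lower in the Alx1-high spots than in the arch and trunk spots, which also held RNA of other tissues, whose part was not tested. Against the arch spots 7 of 12 were called lower and 0 higher, with sums of 4064 CPM and 8366 CPM, and against the trunk spots 6 of 12 were lower and 0 higher, with 4064 CPM and 9665 CPM. H19, an imprinted noncoding RNA, had 1262 CPM in the members, 2788 CPM in the arch spots and 4215 CPM in the trunk spots. Igf2, the growth factor beside it, had 407, 709 and 1190 CPM, and Dlk1, a Notch-related membrane protein, 131, 658 and 240 CPM. Against all other spots of the section 3 of 12 were lower and 0 higher, namely Dlk1, Meg3 and Igf2r. In the Alx1 region the list summed to 4432 CPM in the members and 4612 CPM in the other spots, so low levels were not particular to the members. The sums were 3495 CPM against 7857 CPM in the Cxcl14 region and 3231 CPM against 8199 CPM in the Tnnc2 region. The retinoic acid binding protein gene Crabp1, a gene of early crest, had 1582 CPM in the members, 533 CPM in the arch spots and 990 CPM in the trunk spots.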
